A study of Mus musculus with 7 samples.

Results

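The clustered protocadherins were 58 of the 54532 genes in the deposited tables, taken as every gene whose name has the form Pcdha, Pcdhb, Pcdhga, Pcdhgb, Pcdhac or Pcdhgc followed by a number. They comprised 14 genes of the alpha cluster, 22 of the beta cluster and 22 of the gamma cluster. By class these were 12 alternate alpha, 22 beta, 12 gamma A and 7 gamma B genes and 5 C-type genes, namely Pcdhac1 and Pcdhac2 at the end of the alpha cluster and Pcdhgc3, Pcdhgc4 and Pcdhgc5 at the end of the gamma cluster. The name Pcdha11 stands for 2 entries, ENSMUSG00000007440 and ENSMUSG00000102206, so the 58 entries carry 57 names. The first of these is called Pcdha10 in the RefSeq gene table for GRCm38, and it is called the first Pcdha11 entry here.

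Clustered protocadherins are cadherin-like cell surface proteins that bind the same isoform on a neighbouring cell, and neurites that display matching sets recognise each other as self. Each alpha and gamma gene has a variable first exon with its own promoter, spliced to constant exons that all genes of its cluster share, whereas the beta genes lack shared constant exons. In many neurons the alternate isoforms are picked stochastically from cell to cell while C-type isoforms are used more uniformly, and in olfactory sensory neurons these proteins take part in the sorting of axons into glomeruli.

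Messenger RNA was sequenced from fluorescence-sorted cells of mouse olfactory epithelia, pooled by population and age. OMP-GFP animals gave the mature olfactory sensory neurons, with 1 library at each of postnatal days 2, 7 and 16 (P2, P7 and P16). The intermediate progenitors, cells that express the proneural factor Neurog1, were taken from Neurog1-GFP animals, with 1 library at each of P3, P7, P9 and P16. Both genotypes carry a green fluorescent protein (GFP) reporter, and the labels name no other allele or treatment. Population and mouse line coincide and cannot be told apart. The ages serve as the replicates of each population, the labels name no separate animals or litters, and p-values therefore measure the spread between these libraries only.

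Libraries held 24203965 to 25930727 counts on genes, and the first principal component, with 78.2% of the variance, separated the populations. Neurog1 averaged 1.56 CPM (counts scaled to library size) in mature neurons, against 500 CPM in progenitors, with a log2 fold of -8.32. Omp, the olfactory marker protein gene of the other line, averaged 1936 CPM in mature neurons, against 2566 CPM in progenitors, and did not separate the populations (log2 fold -0.41, edgeR adjusted p = 0.179). Of 7 mature neuron markers that include Omp, 6 were higher in mature neurons, with sums of 13320 to 17600 CPM, against 5226 to 7756 CPM in progenitors. All 7 progenitor markers were lower, at 106 to 166 CPM summed, against 2239 to 3135 CPM. Over all genes tested in counts, 28.8% were higher and 30.0% lower (edgeR, adjusted p under 0.05). Of the markers of other cells, 6 of 7 leukocyte genes, 5 of 6 ensheathing glia genes and 4 of 9 sustentacular genes were higher in mature neurons, against that 28.8%. In TPM, the length-scaled level described below, 4 of 7, 1 of 6 and 1 of 9 were higher (limma, adjusted p under 0.05). The share over all genes tested there was 16.8%. In these 3 lists 0 genes were lower on either scale. Summed leukocyte markers stood at 16.5 to 59.5 CPM in mature neurons, against 7.27 to 13.8 CPM in progenitors. Summed ensheathing glia markers stood at 21.4 to 56.5 CPM in mature neurons and 5.93 to 16.4 CPM in progenitors. Summed sustentacular markers stood at 2869 to 3348 CPM in mature neurons and 1484 to 2082 CPM in progenitors. Other lists were higher in progenitors. Of 6 immature neuron markers 5 were lower in mature neurons, with sums of 1469 to 2082 CPM in mature neurons, against 4143 to 4842 CPM in progenitors. Microvillous cell markers, 1 of 6 higher and 1 lower, summed to 43.9 to 82.2 CPM in mature neurons, against 99.3 to 157.7 CPM in progenitors, and none of these sums overlapped. No list was at 0 in any library, and the part of these cells in the results below was not tested. In such pools, fewer cells that express a gene and less RNA per cell cannot be told apart.

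All 58 genes lie on the plus strand of chromosome 18 (GRCm38, GENCODE M21 gene models). The alpha cluster spans 36930184 to 37187661, the beta cluster 37264938 to 37524479 and the gamma cluster 37661793 to 37841873. The share of a gene's exonic bases that no other gene on the same strand overlaps differed between clusters. Its median was 46.4% in the alpha cluster (8.56% to 61.1%), 100% in the beta cluster (90.3% to 100%) and 55.3% in the gamma cluster (33.2% to 68.5%). How reads of shared exons were counted is not stated in the sources. Members are therefore given on both scales, with levels in TPM (transcript abundance scaled for length) and folds from counts unless the scale is named.

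Mature neurons held more Pcdhb1 and more of a set of alternate alpha and beta genes than progenitors, and less of 4 of the 5 C-type genes. Alternate gamma genes were called in both directions and held all 3 lower calls among the alternate genes. Their summed TPM overlapped between the populations. Of 57 genes tested in counts, 21 were higher in mature neurons, 7 were lower and 29 were not called (edgeR, adjusted p under 0.05), against 28.8% higher and 30.0% lower of the 17975 genes tested, or 58.8% in either direction. The share of members called, 49.1%, was below that background. The median log2 fold of the 57 genes was 0.41, against 0.01 over all tested genes, and 44 of the 57 folds were above 0. Most called differences were small: 18 of the 28 were under 2-fold, with 6 genes at least 2-fold higher and 4 at least 2-fold lower in mature neurons. Between 54 and 55 of the 58 genes reached 0.5 CPM in each mature neuron library, against 54 to 57 in each progenitor library.

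Higher calls lay mainly in the alpha and beta clusters, and lower calls in the gamma cluster and among the C-type genes. In the beta cluster 11 of 22 genes were higher and 0 lower, with a median log2 fold of 0.41. In the alpha cluster 6 of 13 tested genes were higher and 1 was lower, with a median of 0.42. In the gamma cluster 4 of 22 genes were higher and 6 lower, with a median of 0.12. Of the 5 C-type genes 4 were lower and 0 higher, with a median log2 fold of -1.94, whereas 21 of the 52 alternate genes tested were higher and 3 lower. The 6 lower gamma genes include the C-type genes Pcdhgc3, Pcdhgc4 and Pcdhgc5. Over all genes tested, 28.8% were higher and 30.0% lower, and the lower calls of the gamma cluster did not exceed that share. In either direction 53.8% of alpha, 50.0% of beta and 45.5% of gamma genes were called, against 58.8% of all genes. These counts describe the clusters, and no test between clusters was made.

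**Figure D1:**
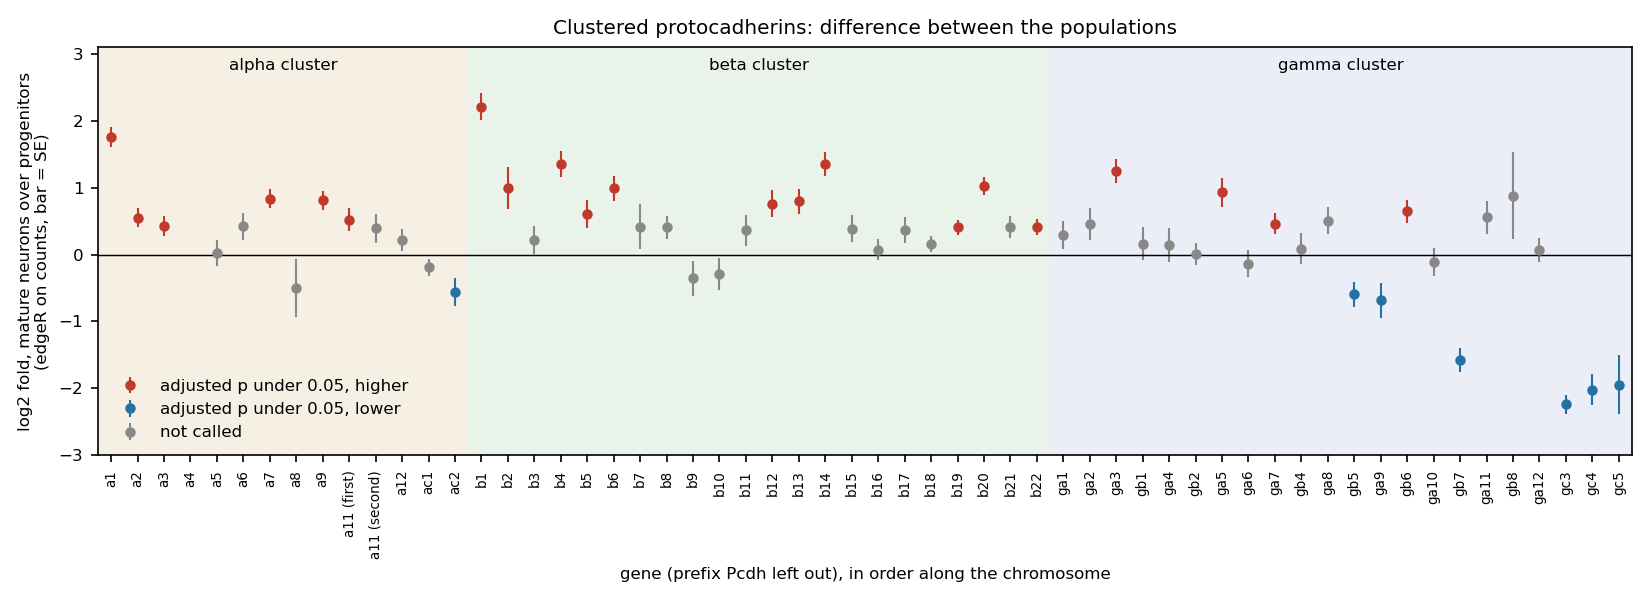
Log2 fold of each clustered protocadherin in mature neurons over progenitors, from edgeR on counts, with its standard error as the bar (3 mature neuron and 4 progenitor libraries), in chromosomal order from the alpha to the gamma cluster. Red and blue points passed the adjusted threshold; Pcdhb1 and Pcdha1 stand highest, at 2.21 and 1.75, and Pcdhgc3, Pcdhgc4 and Pcdhgc5 stand lowest, at -2.24, -2.02 and -1.94. Pcdha4 was not tested in counts and has no point.

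Pcdhb1, the first gene of the beta cluster, had the largest fold among the higher genes and the highest mean level of the family. It stood at 210, 232 and 305 TPM in P2, P7 and P16 mature neurons, against 50.5, 47.1, 61.4 and 75.4 TPM in P3, P7, P9 and P16 progenitors. The lowest mature neuron library was well above the highest progenitor library, and within each population the P16 library was the highest. The log2 fold was 2.21 (SE 0.20, edgeR adjusted p = 4.8e-05), a 4.63-fold difference. Among all 54532 genes, Pcdhb1 ranked between 489 and 767 by TPM in mature neurons and between 2721 and 4388 in progenitors. For comparison, the median clustered protocadherin averaged 4.16 TPM over the 7 libraries.

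Pcdhb1 was a large part of the family's total. It made up 41.0% to 50.5% of the summed clustered protocadherin TPM in mature neurons and 11.6% to 17.6% in progenitors. Within the beta cluster its share was 73.7% to 75.2% in mature neurons and 36.9% to 47.2% in progenitors. All 58 genes summed to 558 ± 50.6 TPM in mature neurons (SD, n = 3) and 400 ± 22.4 TPM in progenitors (SD, n = 4), and the libraries of the populations did not overlap. Without Pcdhb1 the sums overlapped, at 293 to 334 TPM in mature neurons and 327 to 359 TPM in progenitors. 

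**Figure D2:**
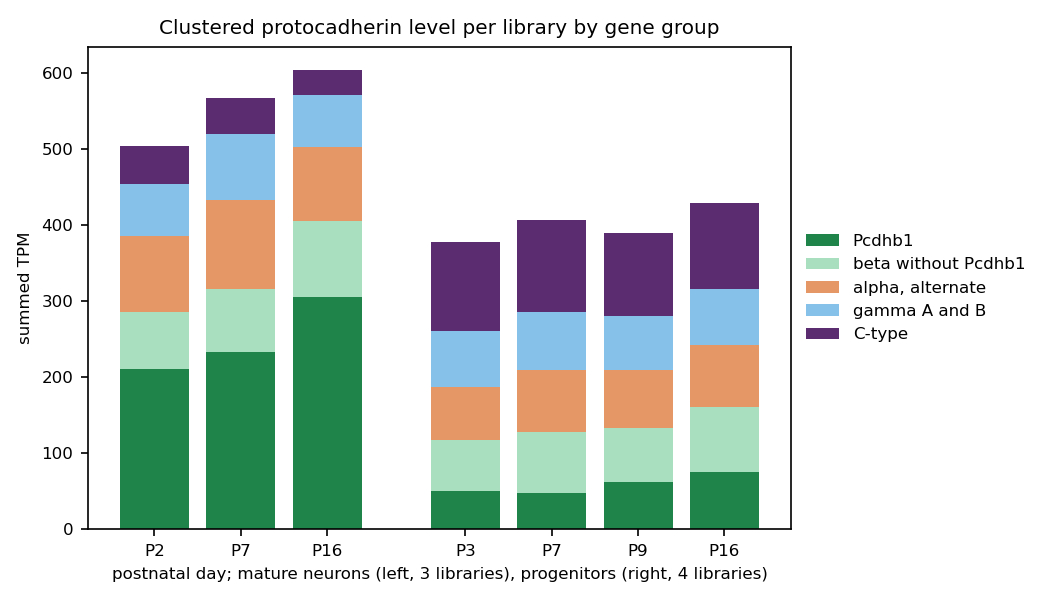
Summed TPM of the clustered protocadherins in each library, stacked by gene group, with the 3 mature neuron libraries on the left and the 4 progenitor libraries on the right, each by postnatal day. Pcdhb1 accounts for 210 to 305 TPM in mature neurons and 47.1 to 75.4 TPM in progenitors, while the C-type genes account for 33.2 to 49.6 TPM in mature neurons and 109 to 120 TPM in progenitors.

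The remaining beta genes stood well below Pcdhb1 and shifted in the same direction on average, except Pcdhb9 and Pcdhb10 (log2 folds -0.35 and -0.29, neither called). Without Pcdhb1 they summed to 230 ± 36.3 CPM in mature neurons, against 179 ± 19.5 CPM in progenitors, with no overlap. On the TPM scale their sums overlapped, at 75.0 to 100 TPM in mature neurons and 66.8 to 84.5 TPM in progenitors.

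Pcdhb20 stood at 7.54, 7.04 and 7.16 TPM in P2, P7 and P16 mature neurons, against 3.71, 4.29, 3.38 and 4.38 TPM in P3, P7, P9 and P16 progenitors. Its mature neuron libraries varied little and all lay above every progenitor library (log2 fold 1.02, SE 0.13, edgeR adjusted p = 0.000266). Pcdhb14 stood at 3.06, 3.04 and 4.08 TPM in mature neurons and 1.12, 1.69, 1.44 and 1.56 TPM in progenitors, in the same order of ages. Again the populations did not overlap (log2 fold 1.35, SE 0.18, edgeR adjusted p = 3.0e-04). The other called beta genes, Pcdhb2, Pcdhb4, Pcdhb5, Pcdhb6, Pcdhb12, Pcdhb13, Pcdhb19 and Pcdhb22, had log2 folds of 0.41 to 1.35. On log2(TPM + 1) Pcdhb2, Pcdhb5, Pcdhb6, Pcdhb19 and Pcdhb22 were not called, with limma adjusted p of 0.0751 to 0.263. Pcdhb2, with 7 to 25 counts, was also not called by DESeq2 (adjusted p = 0.0619).

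The most abundant beta genes after Pcdhb1 did not separate the populations. Pcdhb9 stood at 9.62, 11.2 and 18.8 TPM in P2, P7 and P16 mature neurons, against 14.0, 18.5, 16.8 and 23.5 TPM in P3, P7, P9 and P16 progenitors. The 2 younger mature neuron libraries were below all progenitor libraries and the P16 one was within their range (log2 fold -0.35, edgeR adjusted p = 0.274). Without the P16 mature neuron library Pcdhb9 was called lower (log2 fold -0.72, edgeR adjusted p = 0.0105), the 1 lower call in the beta cluster under any setting that left out a library. Pcdhb16 stood at 7.93, 8.73 and 10.8 TPM in mature neurons and 7.64, 10.4, 8.82 and 10.6 TPM in progenitors, fully intermingled (log2 fold 0.07, edgeR adjusted p = 0.699; -0.03 on log2(TPM + 1)). The 11 uncalled beta genes had log2 folds of -0.35 to 0.41.

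Among the alternate alpha genes, Pcdha1, the first of the cluster, showed the largest difference. It stood at 8.95, 10.9 and 8.88 TPM in P2, P7 and P16 mature neurons, against 2.77, 3.35, 3.6 and 3.45 TPM in P3, P7, P9 and P16 progenitors. Every mature neuron library was above every progenitor library by a wide margin (log2 fold 1.75, SE 0.15, edgeR adjusted p = 3.7e-05). Pcdha7 stood at 9.04, 9.38 and 9.01 TPM in mature neurons and 5.19, 5.83, 6.27 and 5.63 TPM in progenitors (log2 fold 0.84, SE 0.14). Pcdha9 stood at 9.94, 10.8 and 11.5 TPM in mature neurons and 5.64, 6.57, 7.13 and 7.73 TPM in progenitors (log2 fold 0.81, SE 0.15). Neither gene overlapped between the populations.

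The most abundant alternate alpha genes differed less. Pcdha2 stood at 11.7, 15.7 and 13.4 TPM in mature neurons and 10.3, 10.8, 8.67 and 10.5 TPM in progenitors, without overlap (log2 fold 0.55, SE 0.14, edgeR adjusted p = 0.00834). On log2(TPM + 1) its call was made with all libraries (limma adjusted p = 0.0369) and lost without any 1 of them other than P2 mature neurons, with limma adjusted p of 0.0551 to 0.137. Pcdha3 stood at 12.3, 14.1 and 12.1 TPM in mature neurons and 8.06, 11.6, 9.72 and 12.3 TPM in progenitors. Its TPM values overlapped at the P16 libraries, and its call in counts (log2 fold 0.43, edgeR adjusted p = 0.0396) was not made on log2(TPM + 1) (limma adjusted p = 0.159). In counts it was also lost without any 1 of the mature neuron libraries or the P3 or P9 progenitor library, with edgeR adjusted p of 0.0601 to 0.109. The first Pcdha11 entry was also called higher (log2 fold 0.52), while Pcdha5, Pcdha6, Pcdha8, Pcdha12 and the second Pcdha11 entry were not called.

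Pcdha4 could be read only on the TPM scale. It had 0 to 5 counts in any library, and 8.56% of its exonic bases were free of overlap with another gene on its strand, yet it was the most abundant alternate alpha gene by mean TPM. It stood at 14.8, 18.7 and 12.8 TPM in P2, P7 and P16 mature neurons, against 9.27, 11.2, 9.85 and 11.7 TPM in P3, P7, P9 and P16 progenitors. The lowest mature neuron library lay just above the highest progenitor library (difference of 0.51 on log2(TPM + 1), limma adjusted p = 0.0230). The call was lost without the P2 or the P7 mature neuron library or the P3 or the P9 progenitor library, with limma adjusted p of 0.0526, 0.0830, 0.0536 and 0.0578.

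Together the 12 alternate alpha genes summed to 105 ± 11.7 TPM in mature neurons and 77.2 ± 6.26 TPM in progenitors, without overlap. With the C-type genes Pcdhac1 and Pcdhac2 added, the whole alpha cluster overlapped, at 132 ± 17.0 TPM in mature neurons and 120 ± 10.8 TPM in progenitors (SD, n = 3 and n = 4).

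**Figure D3:**
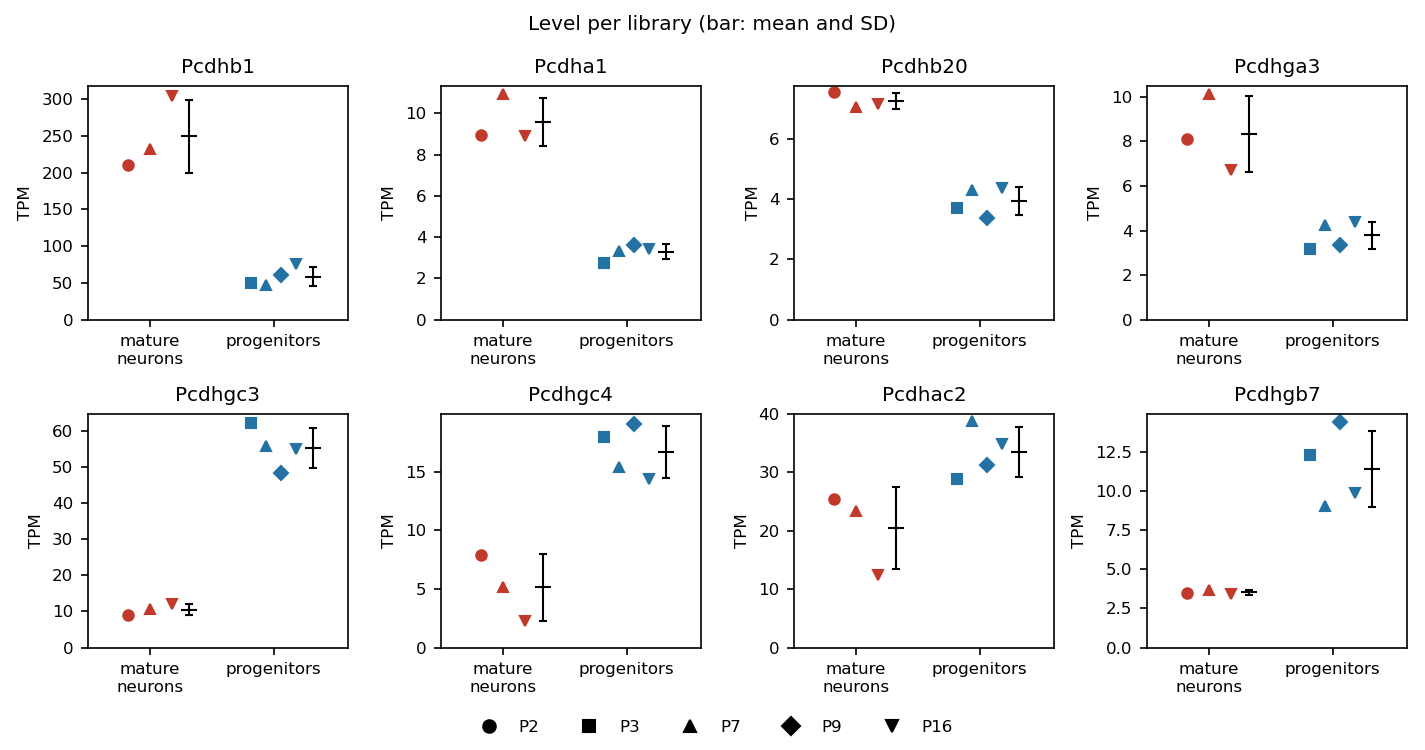
TPM in each library for 8 clustered protocadherins, with mature neurons (red, 3 libraries) left of progenitors (blue, 4 libraries); the symbol gives the age and the black bar the mean and SD. Pcdhb1, Pcdha1, Pcdhb20 and Pcdhga3 lie higher in mature neurons without overlap, and Pcdhgc3, Pcdhgc4, Pcdhac2 and Pcdhgb7 lie lower without overlap, with Pcdhac2 at 12.4 TPM and Pcdhgc4 at 2.25 TPM in the P16 mature neuron library.

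The C-type genes as a group were lower in mature neurons, at 43.3 ± 8.83 TPM summed, than in progenitors, at 115 ± 4.61 TPM (SD, n = 3 and n = 4). They made up 5.50% to 9.85% of the family's TPM in mature neurons and 26.5% to 31.0% in progenitors. Pcdhgc3 led this difference and was the second most abundant member over all 7 libraries after Pcdhb1. It stood at 8.89, 10.6 and 12.04 TPM in P2, P7 and P16 mature neurons, against 62.2, 56.0, 48.5 and 55.0 TPM in P3, P7, P9 and P16 progenitors. All mature neuron libraries were far below all progenitor libraries (log2 fold -2.24, SE 0.14, edgeR adjusted p = 1.1e-05). Its share of gamma cluster TPM was 10.3% to 14.6% in mature neurons and 34.8% to 40.3% in progenitors.

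Pcdhgc4, the isoform reported in mice to protect interneurons from cell death, stood at 7.92, 5.19 and 2.25 TPM in P2, P7 and P16 mature neurons, against 17.9, 15.4, 19.1 and 14.4 TPM in P3, P7, P9 and P16 progenitors. It was lower in every mature neuron library, and the P16 one was the lowest. Its log2 fold was -2.02 (SE 0.23, edgeR adjusted p = 1.5e-04). In counts the mature neuron libraries were nearly level, at 22, 22 and 17, against 101, 106, 90 and 76 in progenitors, so the spread between the mature neuron ages in TPM was not matched in the counts. Its TPM per CPM was 4.94 on average, whereas the other gamma genes stood between 0.543 and 0.919.

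Pcdhgc5 was close to the limit of detection. It had 3, 3 and 5 counts in P2, P7 and P16 mature neurons, against 15, 25, 13 and 12 counts in P3, P7, P9 and P16 progenitors, without overlap (log2 fold -1.94, SE 0.43, edgeR adjusted p = 0.00501). On log2(TPM + 1), where all values were under 1 TPM, the difference was not called (-0.30, limma adjusted p = 0.0642), while on log2(TPM + 0.1) it was called lower (-1.16, limma adjusted p = 0.0372).

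The alpha C-type genes differed less than the gamma ones. Pcdhac2 stood at 25.4, 23.5 and 12.4 TPM in P2, P7 and P16 mature neurons, against 28.9, 38.8, 31.3 and 34.9 TPM in P3, P7, P9 and P16 progenitors. The populations did not overlap, but the 2 younger mature neuron libraries lay close to the lowest progenitor library and the P16 one far below. The call was near its threshold (log2 fold -0.57, SE 0.21, edgeR adjusted p = 0.0457). It was lost on leaving out any single progenitor library or the P7 mature neuron library, and over all settings its adjusted p ran from 0.00298 to 0.105. Markers of fibroblasts and endothelium summed to 368 CPM in the P16 mature neuron library and 104 to 105 CPM in the 2 younger ones. In P3, P7, P9 and P16 progenitors they summed to 84.0, 120, 102 and 201 CPM. The part of such cells in the Pcdhac2 values was not tested. Pcdhac1 stood at 7.27, 7.71 and 6.35 TPM in mature neurons and 7.64, 9.02, 9.91 and 9.19 TPM in progenitors, with P7 mature neurons just above P3 progenitors (log2 fold -0.19, edgeR adjusted p = 0.209).

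Calls among the alternate gamma genes went both ways. Over all genes tested in counts, 28.8% were higher and 30.0% lower. The 12 gamma A genes held 3 higher and 1 lower, and the 7 gamma B genes held 1 higher and 2 lower. Summed over both classes they overlapped between the populations, at 74.5 ± 10.2 TPM in mature neurons and 73.8 ± 2.17 TPM in progenitors (SD, n = 3 and n = 4). The whole gamma cluster, with its C-type genes, summed to 90.2 ± 10.4 TPM in mature neurons and 146 ± 6.68 TPM in progenitors, without overlap.

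Pcdhga3 stood at 8.12, 10.1 and 6.74 TPM in P2, P7 and P16 mature neurons, against 3.19, 4.23, 3.37 and 4.38 TPM in P3, P7, P9 and P16 progenitors. It was the gamma gene with the largest higher call, without overlap between the populations (log2 fold 1.25, SE 0.18, edgeR adjusted p = 4.6e-04). Pcdhga5 stood at 3.80, 5.19 and 3.59 TPM in mature neurons and 1.88, 2.72, 1.93 and 2.74 TPM in progenitors, again without overlap (log2 fold 0.93, SE 0.22). Its call was lost with the P7 and P16 libraries alone (edgeR adjusted p = 0.0585 with age as block and 0.0754 without). On log2(TPM + 1) it was lost without P7 mature neurons or P3 or P9 progenitors (limma adjusted p = 0.0883, 0.0509 and 0.0598). Pcdhga7 stood at 7.67, 9.66 and 6.79 TPM in mature neurons and 7.23, 6, 5.63 and 6.52 TPM in progenitors, where the TPM ranges overlapped (log2 fold 0.46, edgeR adjusted p = 0.0319; limma on log2(TPM + 1), adjusted p = 0.158). That call was lost without P7 mature neurons or P7, P9 or P16 progenitors, with edgeR adjusted p of 0.0578 to 0.136. Pcdhga11 was of similar level and not called, at 7.26, 8.69 and 4.98 TPM in mature neurons and 6.55, 5.82, 3.54 and 4.63 TPM in progenitors (log2 fold 0.56, edgeR adjusted p = 0.0858). Without the P16 mature neuron library it was called higher (edgeR adjusted p = 0.0281), and 7 gamma genes were then higher in place of 4.

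Pcdhgb7 had the largest lower call among the alternate genes of any cluster. It stood at 3.49, 3.69 and 3.39 TPM in P2, P7 and P16 mature neurons, against 12.3, 9.02, 14.4 and 9.85 TPM in P3, P7, P9 and P16 progenitors. The mature neuron libraries were nearly equal and all far below the progenitors (log2 fold -1.58, SE 0.18, edgeR adjusted p = 1.7e-04). Pcdhgb5 stood at 2.15, 3.01 and 2.79 TPM in mature neurons and 5.28, 4.24, 3.86 and 4.77 TPM in progenitors, without overlap (log2 fold -0.60, SE 0.19, edgeR adjusted p = 0.0267). Pcdhga9, the 1 lower gamma A gene, stood at 1.15, 1.97 and 1.10 TPM in mature neurons and 3.06, 2.31, 2.39 and 2.19 TPM in progenitors, without overlap (log2 fold -0.68, SE 0.26, edgeR adjusted p = 0.0485). The Pcdhga9 call was lost on leaving out any single library except P7 mature neurons, with edgeR adjusted p of 0.0712 to 0.150. The Pcdhgb5 call was lost without P2 or P7 mature neurons or P3 or P16 progenitors, with edgeR adjusted p of 0.0542 to 0.0938.

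Pcdhgb6 was the 1 higher gamma B gene, at 5.71, 6.90 and 5.97 TPM in mature neurons and 3.92, 5.58, 3.84 and 4.42 TPM in progenitors (log2 fold 0.64, SE 0.17, edgeR adjusted p = 0.0100). Its lowest mature neuron library was just above its highest progenitor library. The call was not made on log2(TPM + 1) or log2(TPM + 0.1) (limma adjusted p = 0.0682 and 0.0560), nor with the P7 and P16 libraries alone (edgeR adjusted p = 0.0797 with age as block and 0.0992 without). Pcdhgb1 stood at 3.82, 6.53 and 6.19 TPM in mature neurons and 4.37, 4.92, 6.83 and 6.04 TPM in progenitors, and it was not called (log2 fold 0.16; -0.02 on log2(TPM + 1)). The 12 uncalled gamma genes had log2 folds of -0.14 to 0.88, the highest being Pcdhgb8, with 5 to 32 counts.

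Fewer genes were called on the TPM scale, in the same directions. On log2(TPM + 1), 13 of 58 genes were higher and 6 lower (limma, adjusted p under 0.05), against 16.8% higher and 27.3% lower of 24395 genes tested, or 44.1% in either direction. By cluster these were 5 higher and 1 lower in alpha, 6 and 0 in beta, and 2 and 5 in gamma. In all, 18 genes were called on both scales in the same direction and 0 in opposite directions. Over all genes, 49.0% of the calls were higher in mature neurons in counts and 38.0% on log2(TPM + 1), where the median of all genes was -0.08. Across the 57 genes the folds on the 2 scales had a Pearson r of 0.94 and a Spearman rho of 0.96, as a description of genes that share libraries and, within clusters, exons. The populations did not overlap in CPM for 24 genes that were higher and 7 that were lower in mature neurons, against 29.2% and 32.2% of all tested genes, or 61.4% in either direction.

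**Figure D4:**
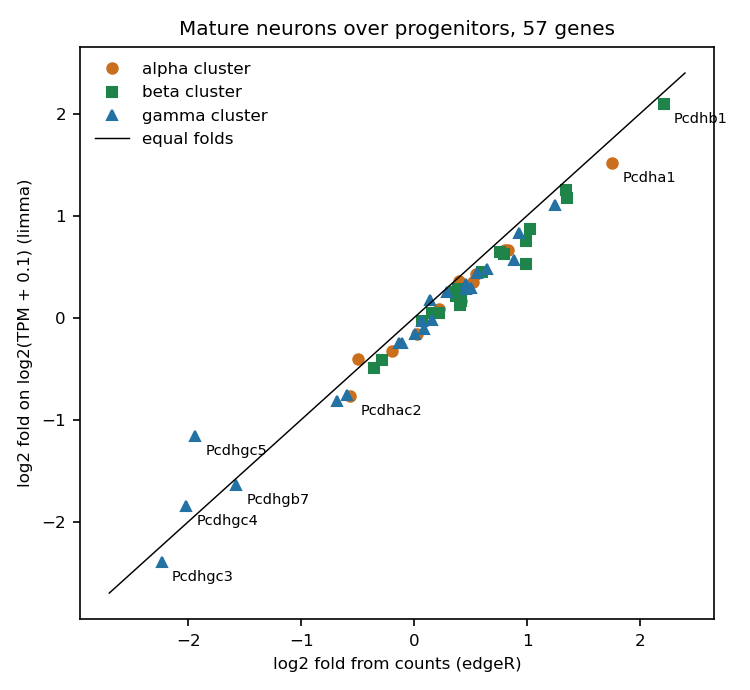
Log2 fold in mature neurons over progenitors for 57 clustered protocadherins, from edgeR on counts (horizontal) and from limma on log2(TPM + 0.1) (vertical), coloured by cluster, with the line of equal folds. Points follow the line, most of them slightly below it, and Pcdhgc5, with 3 to 25 counts, lies farthest above it.

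The correlation of position within a cluster with the folds was negative in each cluster and weakest in the beta cluster. Over genes in chromosomal order, the Pearson r of order with log2 fold was -0.61 in the alpha cluster (13 genes), -0.34 in the beta cluster (22 genes) and -0.61 in the gamma cluster (22 genes), with Spearman rho of -0.60, -0.25 and -0.47. These values describe genes of the same libraries, and the C-type genes end the alpha and gamma clusters. Pcdha1 and Pcdhb1, with the highest folds of their clusters, stand first in them. The correlations were not computed without these genes. Order and log2 mean TPM had an r of 0.014, 0.027 and -0.11 and a rho of -0.055, 0.32 and -0.0051 in the alpha, beta and gamma clusters.

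Other genes annotated within the locus were taken by their coordinates, 27 in all. BC037039, which lies antisense to Pcdhgc3, had 73, 83 and 86 counts in P2, P7 and P16 mature neurons, against 441, 481, 425 and 439 counts in P3, P7, P9 and P16 progenitors. It was lower in mature neurons like Pcdhgc3 itself (log2 fold -2.29, SE 0.14, edgeR adjusted p = 9.6e-06). The kit marks strand, but the strand setting of the counting is not given in the sources used here, so the reads of the 2 genes may be mixed. Gm10544, a noncoding gene on the minus strand within the alpha cluster, had 4, 6 and 8 counts in mature neurons and 73, 73, 87 and 102 counts in progenitors (log2 fold -3.60, SE 0.30, edgeR adjusted p = 3.7e-05). Taf7, a subunit of the general transcription factor TFIID that lies between the beta and gamma clusters, was higher in mature neurons (log2 fold 0.49, SE 0.12). Gm10545, Gm26672 and 3222401L13Rik were tested and not called.

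Chromatin factors known to act on this locus were mostly lower in mature neurons. Of 25 genes for CTCF, cohesin and its loaders, DNA methylation and histone methylation, 16 were lower and 2 higher, with a median log2 fold of -0.33. Over all genes tested in counts, 30.0% were lower and 28.8% higher. Smchd1, which represses the clustered protocadherins in mouse cells, averaged 106 ± 9.88 CPM in the 3 mature neuron libraries, against 449 ± 52.2 CPM in the 4 progenitor libraries (SD). Its log2 fold was -2.09 (SE 0.12, edgeR adjusted p = 8.4e-06). On log2(TPM + 1) the difference was larger, at -3.46, with means of 37.8 TPM in mature neurons and 424 TPM in progenitors. Dnmt3b, the DNA methyltransferase that methylates alternate promoters in early mouse development, was low throughout and differed by -1.76 (log2, SE 0.36, edgeR adjusted p = 0.00322). Ehmt1, a histone methyltransferase, had a log2 fold of -1.62 and Dnmt1, the maintenance DNA methyltransferase, one of -1.05. Ctcf, which binds the alternate promoters and their enhancers, averaged 130 ± 14.6 CPM in mature neurons, against 155 ± 4.86 CPM in progenitors, a small difference (log2 fold -0.26, SE 0.08, edgeR adjusted p = 0.0221).

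Partners of protocadherin signalling also leaned lower, with 13 of 21 genes lower and 2 higher, against 30.0% lower and 28.8% higher over all genes. Their median log2 fold was -0.47. Marcks, an actin-linked substrate of protein kinase C, had a log2 fold of -2.06, the kinase gene Fyn one of -1.80 and Ptk2, the focal adhesion kinase gene, one of -0.80. The nonclustered protocadherins, which lie outside this locus, had 5 higher and 2 lower of 10 tested genes, against 28.8% higher and 30.0% lower over all genes, with a median of 0.47. On log2(TPM + 1) 2 of the 10 were higher and 1 was lower, against 16.8% and 27.3% over all genes. Pcdh10 averaged 688 ± 81.2 CPM in mature neurons, against 323 ± 85.01 CPM in progenitors (SD, log2 fold 1.09, SE 0.20), Pcdh8 had a log2 fold of 1.23 and Pcdh19 one of 0.79, the last not called on log2(TPM + 1) (limma adjusted p = 0.0806). Of 6 classical cadherins tested, Cdh3 was higher (log2 fold 2.57) and Cdh2 lower (-0.44).

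No clustered protocadherin was called for a slope with age shared by the populations. Of the 17975 genes tested by edgeR, 0 were called, while 3746 had an unadjusted p under 0.05, as had 7 of the 57 members. The 2 members with the smallest p were beta genes. Pcdhb9 had a slope of 0.31 per doubling of age on the log2 scale (SE 0.06, edgeR adjusted p = 0.0631), with the TPM values given above. Pcdhb7 stood at 4.43, 4.49 and 10.7 TPM in P2, P7 and P16 mature neurons, against 4.23, 5.68, 5.20 and 6.40 TPM in P3, P7, P9 and P16 progenitors. Its slope was 0.36 (SE 0.10, edgeR adjusted p = 0.101), and 0.17 without the P16 mature neuron library, which was the highest. That library also had the highest summed markers of leukocytes, ensheathing glia, and fibroblasts and endothelium, at 59.5, 56.5 and 368 CPM. The part of such cells in the age slopes was not tested. Without the P7 mature neuron library Pcdhb9 and Pcdhb7 were called, with edgeR adjusted p of 0.0162 and 0.0255, among 986 of 18436 genes called (5.35%). With no filter on low counts Pcdhb9 was called (edgeR adjusted p = 0.0186), among 770 of 32706 genes (2.35%). With the postnatal day itself in place of its logarithm, 1124 of 17975 genes were called (6.25%), among them Pcdhb9, Pcdhb1 and Pcdhb7, with edgeR adjusted p of 0.0148, 0.0240 and 0.0347.

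**Figure D5:**
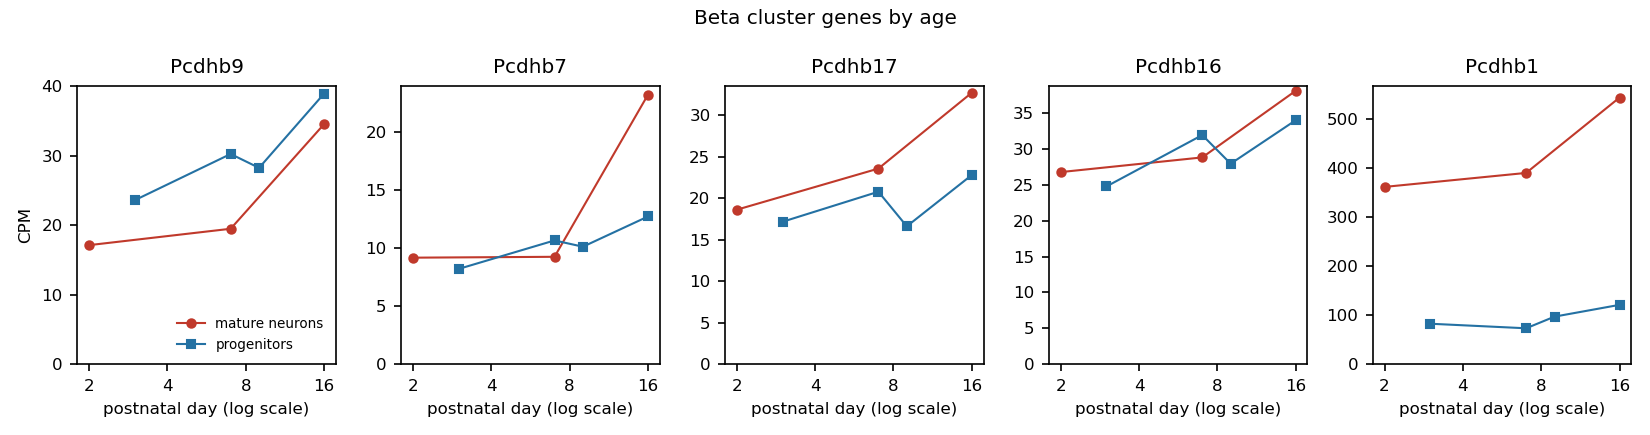
CPM of 5 beta cluster genes by postnatal day on a log2 axis, in mature neurons (red circles, 3 libraries) and progenitors (blue squares, 4 libraries); lines join libraries of a population. Pcdhb17, Pcdhb16 and Pcdhb1 were added after their values were seen. The P16 library is the highest of its population in every panel, and for Pcdhb7 the P16 mature neuron library stands apart from the others.

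No difference of age slopes between the populations was called. For the difference of slopes 0 of 17975 genes were called by edgeR, while 1075 had an unadjusted p under 0.05, as had 4 members. The 2 members with the smallest p were Pcdhb11, with a slope in mature neurons 0.51 higher than in progenitors, and Pcdhgc3, with one 0.26 higher (edgeR adjusted p = 0.806 for both). Pcdhb11 stood at 2.57, 3.94 and 4.42 TPM in P2, P7 and P16 mature neurons, against 3.80, 2.61, 3.21 and 2.45 TPM in P3, P7, P9 and P16 progenitors. With single libraries at each age, these fits had few residual degrees of freedom.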

How the data were processed

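Per the labels' protocols, poly(A) RNA from sorted cells was made into TruSeq Stranded libraries. Tools named in the submitters' processing notes are RSEM, STAR 2.6.1c and bcl2fastq 2.18, with build mm10. The authors deposited whole-number gene counts and TPM values, with TPM scaled for length to a fixed total per library. Neither the annotation release nor how reads with several matches were counted is stated there. Entries naming no gene, 23.5% to 27.2% of each library, were left out. Of the file's gene IDs, 99.8% were found in GENCODE M21.

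Counts were tested over all genes with edgeR 4.0.16 (quasi-likelihood, TMM, filterByExpr, R 4.3.3), and log2(TPM + 1) with limma 3.58.1 (genes with a mean of at least 0.1 TPM), both with Benjamini-Hochberg adjustment at 0.05. A fold on log2(TPM + 1) understates the change of low genes. The fits were tested on simulated data. DESeq2 1.42.0, other scalings, filters, pseudocounts, ages as covariate, the P7 and P16 libraries alone and leaving out each library were tried. Members and lists were chosen with earlier results of these data known. Named with per-library values were the C-type genes and, per class, the 3 highest by mean TPM and the 3 called with the smallest p in each direction; for age, the 2 smallest p; in the related lists, Ctcf, Smchd1, Dnmt3b and the 3 called with the smallest p.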

Additional observations from a re-analysis of the deposited data

Results flagged for a closer look

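Of 39 groups of 4 progenitor libraries examined for a library far from the others, 2 held one; the limit used lets chance pass about 1 in 20 independent groups, and these groups share genes. Pcdhga9 stood at 4.37 CPM in P3 progenitors, with the other 3 progenitor libraries at 3.26 to 3.38 CPM. The alternate gamma genes summed to 101.5 CPM in P9 progenitors, with the other 3 at 107.0 to 107.7 CPM.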

How the results depend on the processing

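Counts of calls here are higher or lower in mature neurons. With DESeq2, which tested 58 members, and with the size factors of DESeq2 in edgeR, 21 members were higher and 7 lower, 20 and 21 of the 21 being the same genes. Calls over all genes, in either direction, then numbered 10975 and 10528, against 10565 in the main fit. No paired analysis by replicate number was possible because the labels carry none. The P7 and P16 libraries alone, with age as the replicate block, gave 12 higher members (7 beta, 1 gamma) and, without the block, 10 higher and 3 lower (5 beta higher; gamma 1 higher, 3 lower; 0 alpha lower; 2 C-type lower; 4 higher genes in the related lists). Calls over all genes fell too, to 9331 of 17908 with the block and 7195 of 17908 without it, against 10565 of 17975 in the main fit. On log2(TPM + 1) 13 members were higher (6 beta, 2 gamma; 4 in the related lists), on log2(TPM + 0.1) 12 (5 beta, 2 gamma; 4 in the related lists), and without a filter 0 alpha genes were lower by limma. Calls over all genes on these 3 settings were 10762 of 24395, 10868 of 24395 and 10356 of 33960.

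Leaving out single libraries gave 15 to 23 higher and 4 to 7 lower members in counts: alpha 4 to 6 and 0 to 1, beta 8 to 11 and 0 to 1, gamma 3 to 7 and 4 to 5, C-type 3 to 4 lower. The fewest higher, 15, came without P7 mature neurons and the fewest lower, 4, without P3 or P16 progenitors. Calls over all genes in these fits ran from 9365 to 10772 in counts, against 10565 with all libraries. In TPM they ran from 9165 to 10355, against 10762. Leaving out single libraries in TPM gave 8 to 12 higher and 4 to 6 lower members: alpha 3 to 4 and 0 to 1, beta 4 to 5 and 0 to 1, gamma 1 to 3 and 3 to 5, C-type 2 to 3 lower. Age slopes gave 0 to 2 members, 1 with no filter and 3 with the postnatal day; related lists gave 8 to 15 higher and 29 to 34 lower genes. The log2 ratio of summed CPM was 1.28 for beta, and 0.16 for alpha (0.022 without TMM), -0.46 for gamma (-0.61 without TMM, -0.70 in TPM), -1.19 for C-type (-1.41 in TPM) and 0.68 for all members (0.53 without TMM, 0.48 in TPM).

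Between counts and log2(TPM + 1) the sign turned for 6 uncalled members, Pcdhb16 and Pcdhgb1 by the rule for named genes and Pcdha5 (0.026 and -0.14), Pcdhgb2 (0.0093 and -0.14), Pcdhgb4 (0.087 and -0.082) and Pcdhga12 (0.066 and -0.019) after their values were seen. Pcdhb16 was at -0.028 and -0.031 on log2(TPM + 1) and log2(TPM + 0.1), -0.093 to 0.18 in counts and -0.14 to 0.060 in TPM on leaving out single libraries. Pcdhgb1 was at -0.018 and -0.024 on the 2 TPM scales and -0.14 to 0.19 in TPM on leaving out single libraries. Pcdhb7 ran from -0.18 to 0.64 in counts and from -0.21 to 0.34 in TPM, the lowest without P16 mature neurons. The causes were not tested. Members with few counts, such as Pcdhgc5, are limited by depth.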
